A study of Mus musculus with 5 samples.

Results

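A CpG dinucleotide reads the same on both strands of DNA, so each CpG site is a dyad of a cytosine on the plus strand and a cytosine on the minus strand. Methylation of these paired cytosines was compared across the genome of leukemic blasts, the immature cells of acute myeloid leukemia (AML), in a mouse model driven by mutant *Cebpa*. The measurement was whole-genome bisulfite sequencing (WGBS), in which unmethylated cytosines are read as thymine. Dyads on the 19 autosomes were kept where each strand had at least 4 calls summed over the *Tet2*+/+ libraries and again at least 4 summed over the *Tet2*-/- libraries. This left 4146055 of 20383623 autosomal dyads (20.3%), out of 21908008 listed in all. The rule used the number of calls and not the level of methylation.

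All 5 libraries came from *Cebpa*-/p30 blasts on a C57BL/6 background, in which one *Cebpa* allele was deleted and the other gives p30 alone, a truncated form of the myeloid transcription factor CEBPA. The 2 *Tet2*+/+ libraries (numbers 23 and 24) kept *Tet2*, and the 3 *Tet2*-/- libraries (numbers 5, 7 and 8) came from mice with floxed *Tet2* alleles deleted in the same way. Deletion used the *Mx1-Cre* transgene, which interferon or Poly(I)-Poly(C) induces and which is not restricted to a single blood lineage. Donor bone marrow was transplanted into lethally irradiated recipients, and the cells were sorted from the marrow of leukemic animals as live, donor-derived (CD45.2+) cells that lacked the lymphoid and erythroid antigens CD3, B220 and Ter119. Each library stood for 1 leukemia, so p-values over libraries measure the spread between these animals.

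When DNA is copied, the old strand of a methylated dyad keeps its methyl group and the new strand has none, a state called hemimethylated. UHRF1 binds such dyads and recruits the maintenance methyltransferase DNMT1, which copies the mark to the new strand. The TET enzymes oxidise methylated cytosine to hydroxymethylcytosine, which bisulfite does not tell apart from methylated cytosine. Each read reports a single strand of a single molecule, so the plus and minus levels of a dyad are averages over different molecules, and the state of both strands of one molecule was not seen.

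The depth of the members and the labels were checked first. Member dyads held 20956082 to 36461878 calls per library, of 61122068 to 107360283 calls on all autosomal dyads. A member had a median of 34 calls over all libraries and both strands. The number of plus calls divided by that of minus calls was 0.996 to 1.00 in every library. Members lay in soft-masked repeats less often than all autosomal dyads (10.8% against 24.6%), where soft-masked means repeats and low-complexity sequence that the reference genome marks. Exons held 9.79% of members and 6.998% of all autosomal dyads. Exons, introns and gene starts are those of protein-coding genes throughout, and intergenic means outside protein-coding genes, so that it includes noncoding RNA genes. At the edge of the rule, 1818833 members had exactly 4 calls in the shallowest of the strand sums, with levels of 63.6% (plus) and 63.8% (minus) in the *Tet2*+/+ pool. The 2568712 dyads just outside, with 3 calls there, had 64.6% and 64.8%. The segment of *Tet2* between the genotyping oligonucleotides of the study (chr3:133466371-133468428, GRCm38) had 3.46 and 4.33 calls per dyad in *Tet2*+/+ and 0.154, 0.103 and 0.0513 in *Tet2*-/-, against 2.85 to 5.34 in the rest of the gene, so that the labels matched the calls.

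The clearest examples of unequal strands are printed with 30 bases on either side of the CpG, as the plus strand of the RefSeq GRCm38 genome, with the CpG in capitals. They are the 6 dyads with the most calls among those whose strands were at least 75 percentage points apart in the same direction in both genotype pools, and their sequence lets the context of the unequal cytosines be read. Dyads with over 3 times the median calls of members, or with a library in the other direction, were not eligible, which left 157 to choose from. Lower case here does not mark repeats, but all 6 dyads lay in soft-masked sequence, where the place of reads can be uncertain.
Dyad A, chr13:75051356-75051417, intergenic: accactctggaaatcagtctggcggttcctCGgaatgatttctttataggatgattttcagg
Dyad B, chr17:86105172-86105233, intron of *Srbd1*: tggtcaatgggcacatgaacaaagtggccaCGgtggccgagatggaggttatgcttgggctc
Dyad C, chr11:100872512-100872573, intron of *Stat5a*: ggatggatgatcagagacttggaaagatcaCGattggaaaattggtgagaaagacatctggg
Dyad D, chr17:40692243-40692304, intergenic: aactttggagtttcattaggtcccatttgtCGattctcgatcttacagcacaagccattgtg
Dyad E, chr3:97709035-97709096, intron of *Pde4dip*: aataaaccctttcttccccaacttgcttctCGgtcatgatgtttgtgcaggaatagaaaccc
Dyad F, chr8:75528821-75528882, intron of *Iqcm*: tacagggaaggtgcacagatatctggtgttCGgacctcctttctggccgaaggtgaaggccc

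These dyads were chosen for their difference, so their counts are a description. At dyad C, in an intron of *Stat5a* (a transcription factor activated by cytokine receptors), 31 of 32 plus calls and 4 of 48 minus calls were methylated. By library, the plus strand of dyad C had 2 of 2 and 9 of 9 methylated calls in *Tet2*+/+ and 5 of 6, 10 of 10 and 5 of 5 in *Tet2*-/-. The minus strand had 2 of 7 and 1 of 11 in *Tet2*+/+ and 1 of 15, 0 of 13 and 0 of 2 in *Tet2*-/-. The plus strand was thus the more methylated in every library, but the choice left out dyads with a library in the other direction. The plus strand in *Tet2*+/+ library 23 and the minus strand in *Tet2*-/- library 8 rested on 2 calls each. Dyad F, in an intron of *Iqcm*, had the reverse order, with 2 of 38 plus calls and 24 of 26 minus calls methylated. Its plus strand had 0 of 6 and 0 of 7 methylated calls in *Tet2*+/+ and 1 of 11, 1 of 11 and 0 of 3 in *Tet2*-/-, and its minus strand 6 of 6, 4 of 4, 5 of 6, 3 of 3 and 6 of 7. The plus strand of the intergenic dyad A had 20 of 22 methylated calls and its minus strand 5 of 64. In each of these 6 dyads the unmethylated strand also had more calls than the methylated strand, as in dyad B with 59 plus calls (5 methylated) and 22 minus calls (20 methylated). Dyad D had 25 of 27 on the plus strand and 3 of 39 on the minus strand, and dyad E 11 of 46 and 18 of 18.

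Over all members, both strands were methylated to nearly the same level. In *Tet2*+/+ library 23 the plus strand stood at 64.7% and the minus strand at 64.9%, and in library 24 at 59.88% and 60.05%. In *Tet2*-/- the paired levels were 69.0% and 69.2% in library 5, 73.5% and 73.7% in library 7, and 66.8% and 67.0% in library 8. The minus strand was higher in 5 of 5 libraries, by an amount far smaller than the distance between libraries. The plus minus minus difference was -0.204 ± 0.0424 percentage points (mean ± SD, n = 5), with an exact sign-flip permutation p of 0.0625, two-sided, the smallest that 5 libraries allow. It was -0.200 ± 0.0455 points in *Tet2*+/+ (n = 2) and -0.206 ± 0.0504 in *Tet2*-/- (n = 3), and the difference between the groups was -0.00584 points (exact permutation test over 10 splits, two-sided, p = 0.8, smallest possible 0.1). The genotypes overlapped. Over all dyads of the X chromosome, with no minimum of calls, the differences were -0.172 and -0.137 points in *Tet2*+/+ and -0.229, -0.163 and 0.0408 in *Tet2*-/-.

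The small difference was spread over the chromosomes. The minus strand was higher in all 5 libraries on 13 of the 19 autosomes and the plus strand in all 5 on 0, and 87 of 95 pairs of a chromosome and a library were below 0. To hold the numbers of calls equal, each dyad was also given the same number of calls on both strands of a library (the smaller of the numbers), and the difference was then -0.232 ± 0.0568 points (n = 5, exact p = 0.0625). It held in every library at equal calls in soft-masked repeats (-0.273 ± 0.0798), outside them (-0.227 ± 0.0547), in introns (-0.248 ± 0.0717), in exons (-0.285 ± 0.0622) and within 1 kb of gene starts (-0.0811 ± 0.0140). CpG-dense sequence did not share the direction: in 1 kb tiles with 50 or more dyads, the plus strand was higher in 4 of 5 libraries (0.115 ± 0.120 points, exact p = 0.125). These levels are weighted by calls, and the value for dense tiles was not computed without dyads of very many calls.

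**Figure D1:**
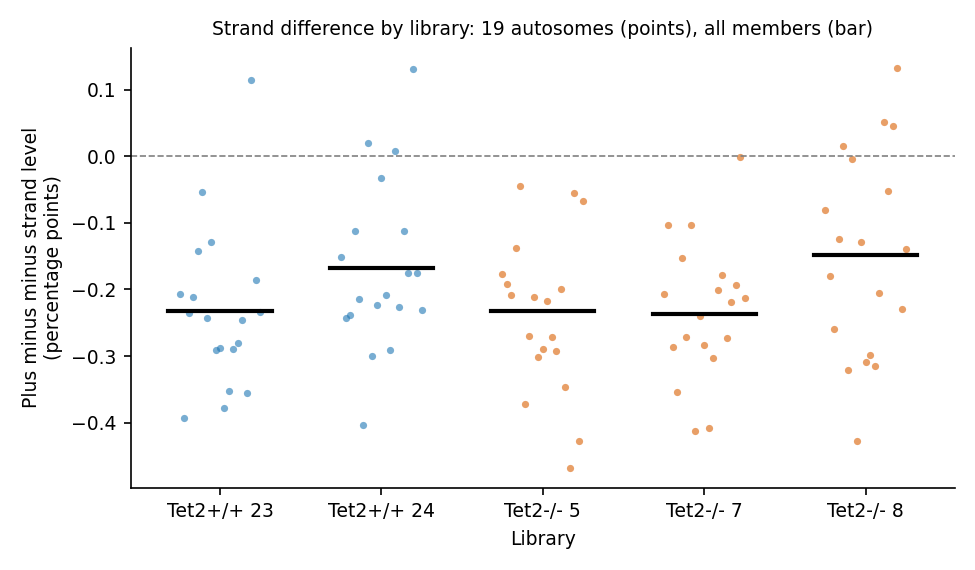
Plus minus minus strand level (percentage points, vertical axis) of member dyads in each library (horizontal axis), with 1 point for each of the 19 autosomes and a bar for all members. The bars lie between -0.237 and -0.148 in all 5 libraries, and 87 of 95 points are below 0.

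The cytosines of a dyad also differ in the base that follows the CpG on their own strand. Each was named by that base (CGA, CGC, CGG or CGT), and 6 classes of dyads pair cytosines of different names. Within a dyad, a cytosine in CGG was more methylated than its partner in CGC. In 468532 dyads of this class the levels of CGC and CGG were 67.5% and 69.2% in *Tet2*+/+ library 23, 63.8% and 65.4% in library 24, 70.0% and 71.8% in *Tet2*-/- library 5, 72.6% and 75.4% in library 7, and 68.8% and 70.1% in library 8. The CGG cytosine was the higher in every library. CGC minus CGG was -1.85 ± 0.571 points over all calls and -1.07 ± 0.169 at equal calls (n = 5 each, exact p = 0.0625, p adjusted over the 6 classes 0.075 for all calls).

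The other classes gave an order from CGG down to CGC. At equal calls, CGA exceeded CGC by 0.929 ± 0.296 points, CGG exceeded CGT by 0.781 ± 0.154, and CGA exceeded CGT by 0.511 ± 0.277, each in 5 of 5 libraries. CGA stood below CGG (-0.399 ± 0.195, below 0 in 5 of 5). CGC and CGT, next to each other in this order, did not differ beyond their spread at equal calls (-0.111 ± 0.158, exact p = 0.25). Each of the other classes had an exact p of 0.0625 at equal calls, the smallest possible. Over all calls it was CGA minus CGT that missed this p (0.315 ± 0.363, exact p = 0.125, with 1 library below 0, and -0.0181 and 0.0197 points without *Tet2*+/+ library 23 and 24), while CGC minus CGT was below 0 in 5 of 5 libraries (-0.332 ± 0.238, exact p = 0.0625), though only -0.181 without *Tet2*-/- library 7 and -0.207 without library 5. The comparison at equal calls was added after the values over all calls were seen. Over all calls the other differences were 0.935 for CGA minus CGC, 0.887 for CGG minus CGT, -0.923 for CGA minus CGG and -1.85 for CGC minus CGG, each with an exact p of 0.0625. The distance between CGA and CGT depended on the libraries, with 0.881 and 0.693 points in *Tet2*+/+ and 0.419, 0.389 and 0.175 in *Tet2*-/- at equal calls. The groups did not overlap in this class, with an exact p of 0.1 that is the smallest 2 against 3 libraries can give (adjusted 0.6 over the 6 classes for all calls). In the remaining classes the exact p for the genotype difference at equal calls was 0.2 to 0.8.

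Genes give each dyad a sense strand (the sequence of the RNA) and an antisense strand. Over 2211361 members in bodies of protein-coding genes, sense and antisense levels were 65.9% and 66.0% in *Tet2*+/+ library 23, 61.3% and 61.3% in library 24, 70.0% and 69.8% in *Tet2*-/- library 5, 74.3% and 74.0% in library 7, and 68.5% and 68.3% in library 8. Sense minus antisense was 0.145 ± 0.137 points (n = 5, exact p = 0.125). The groups did not overlap (-0.0412 and 0.0690 in *Tet2*+/+, 0.155, 0.313 and 0.227 in *Tet2*-/-), with a group difference of 0.218 points and the smallest possible exact p of 0.1. Without *Tet2*-/- library 7 the group difference was 0.122 points, and without *Tet2*+/+ library 23 it was 0.136. The value over all libraries fell to 0.0801 without *Tet2*-/- library 5 and to 0.0918 without library 7. At equal calls the difference was -0.00649 ± 0.0262 points (exact p = 0.6875) and the group difference 0.0419 points (exact p = 0.1). Along the gene at equal calls, sense minus antisense stood at -0.00935 ± 0.0352 points over 1 kb before the start, 0.0307 ± 0.0455 in the first 1 kb, -0.0133 ± 0.0293 in the body, -0.0738 ± 0.139 in the last 1 kb and 0.0413 ± 0.115 over 1 kb past the end. Each part of the gene had libraries on both sides of 0 at equal calls, and the exact p was 0.1875 to 0.5625. Over all calls the first 1 kb (0.318 ± 0.252) and the 1 kb past the end (0.312 ± 0.255) were above 0 in 5 of 5 libraries, each with an exact p of 0.0625, the smallest possible. The remaining parts over all calls were 0.248 ± 0.192 before the start, 0.0715 ± 0.0588 in the body and 0.0555 ± 0.211 in the last 1 kb, with libraries on both sides of 0.

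Strands far apart were somewhat more frequent than random draws of calls gave. Each strand was thinned to 4 calls, averaged over all draws, and the share of dyads with strands at least 75 points apart was set against the share when both strands were drawn from the calls of the dyad as a whole. In the *Tet2*+/+ pool 2.20% of members were that far apart and 2.07% were expected, an excess of 0.129 points. In the *Tet2*-/- pool the shares were 1.75% and 1.60%, an excess of 0.155 points. The size depended on the calls used and on the cut that they allow. With 6 calls a strand the excess was 0.0329 and 0.0425 points, but 6 calls allow no difference of exactly 75 points, so the cut was stricter. Dyads with at least 6 calls on each strand in each group, thinned to 4, had an excess of 0.121 and 0.155 points. Without thinning it was 0.0556 and 0.0273, with the order of the pools turned. Without thinning, 0.514% of all dyads with 4 calls on each strand in the *Tet2*+/+ pool and 0.161% of those in the *Tet2*-/- pool (autosomes and X) were at least 75 points apart, and the shares fall as strands gain calls.

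Each library alone showed the excess. Observed and expected shares were 1.98% and 1.85% in *Tet2*+/+ library 23 and 2.22% and 2.06% in library 24. They were 1.67% and 1.53%, 1.29% and 1.15%, and 1.89% and 1.70% in *Tet2*-/- libraries 5, 7 and 8, over 270289 to 1384659 dyads per library. The excess was 0.151 ± 0.0222 points in *Tet2*+/+ (n = 2) and 0.161 ± 0.0285 in *Tet2*-/- (n = 3), with a difference of 0.00990 points (exact permutation test, two-sided, p = 0.8, smallest possible 0.1). The groups overlapped. The sign of this difference depended on the method, with -0.0531 points against binomial draws at the level of the dyad, -0.0170 with 6 calls a strand and -0.0115 without thinning (exact p of 0.4 to 0.5). Divided rather than subtracted, observed over expected was 1.08 ± 0.00553 and 1.11 ± 0.0178 (exact p = 0.2), and by this ratio the groups did not overlap (1.07 and 1.08 against 1.09, 1.13 and 1.11). In 859208 dyads with at least 2 calls on each strand in all 5 libraries, thinned to 2 calls and read at 100 points apart, the excess was 0.0951 and 0.113 points in *Tet2*+/+ and 0.105, 0.149 and 0.138 in *Tet2*-/-, and observed over expected 1.026 and 1.028 against 1.032, 1.060 and 1.040.

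The excess stood in repeats more than elsewhere. In soft-masked repeats it was 0.595 and 0.772 points in *Tet2*+/+ and 0.561, 0.501 and 0.796 in *Tet2*-/-. Outside repeats it was 0.0829 and 0.101 points in *Tet2*+/+ and 0.0967, 0.108 and 0.127 in *Tet2*-/-. The ranges of repeats and other sequence did not touch, and the difference was 0.542 ± 0.125 points, above 0 in 5 of 5 libraries (exact sign-flip p = 0.0625, adjusted over all contrasts of location, next base and motif 0.1375). Promoters, exons and introns had less excess than intergenic dyads in every library, by -0.158 ± 0.0533 points within 1 kb of a gene start, -0.134 ± 0.0627 in exons and -0.0830 ± 0.0226 in introns, and observed over expected was lower in each of them in every library too. Tiles of 1 kb with 50 or more dyads had 0.113 points less than tiles with under 20 (-0.113 ± 0.0152, 0 of 5 libraries above 0), but fewer far-apart dyads were expected there (0.547% against 2.25% in the *Tet2*+/+ pool). Observed over expected kept no order between dense and sparse tiles: dense tiles had 1.07 and 1.11 in *Tet2*+/+ and 1.05, 1.09 and 1.14 in *Tet2*-/-, and tiles with under 20 dyads 1.07, 1.08, 1.09, 1.13 and 1.11 in the same libraries. Dyads at intermediate levels had the highest share of far-apart strands, observed and also expected, since strands far apart place the level of a dyad near the middle. At 40% to 60%, 8.31% were observed and 7.87% expected in the *Tet2*+/+ pool, and 8.33% and 7.63% in the *Tet2*-/- pool. At 80% to 100% the observed shares were 0.0859% and 0.248%, and the expected shares 0.0794% and 0.218%.

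**Figure D2:**
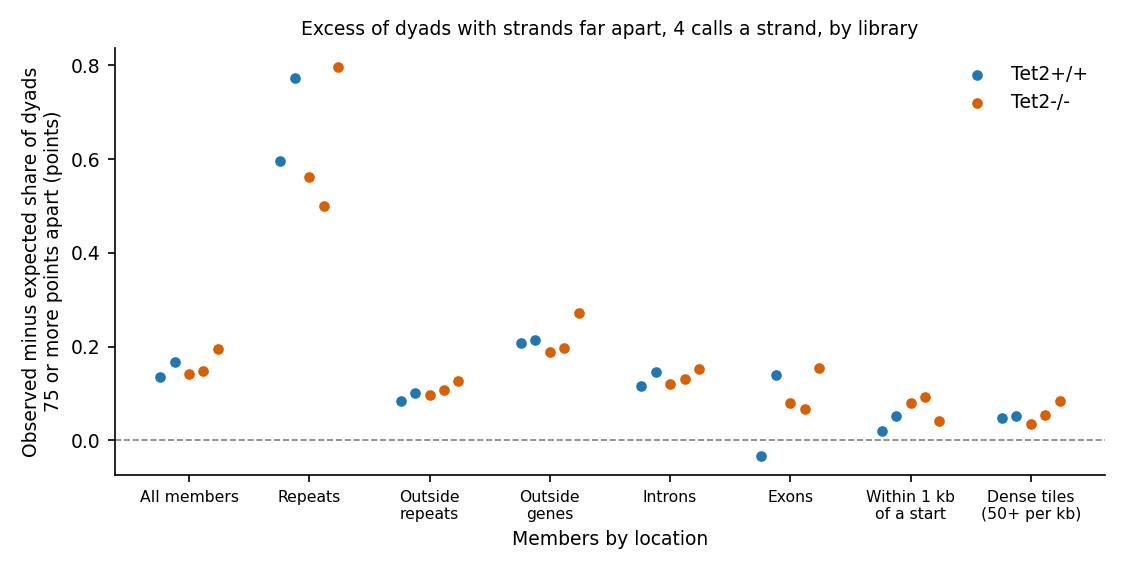
Observed minus expected share of dyads with strands at least 75 points apart (percentage points, vertical axis) after thinning to 4 calls a strand, by location of the members (horizontal axis), with 1 point per library. Repeats lie at 0.501 to 0.796 and sequence outside repeats at 0.0829 to 0.127, and the genotypes overlap in both.

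At imprinted genes the parental chromosomes can differ in methylation. The 15 imprinted genes listed had 209 members within 1 kb of their starts, with 3.48% far apart and 4.07% expected in the *Tet2*+/+ pool and 3.804% and 3.45% in the *Tet2*-/- pool. Their promoters were not all at intermediate levels: in *Tet2*+/+, *H13* had plus and minus levels of 0% and 0.893%, and *Nap1l5* of 96.9% and 97.4%. Nor did the strands of those at intermediate levels keep 1 direction, as the examples show, which were chosen after their values were seen. *Peg3*, a zinc-finger gene expressed from the paternal allele, had plus and minus levels of 58.3% and 47.5% in *Tet2*+/+ and 69.5% and 58.2% in *Tet2*-/- over 16 members. *Igf2r*, expressed from the maternal allele, had 45.5% and 40.2% in *Tet2*+/+ and 72.9% and 67.4% in *Tet2*-/- over 18 members. *Peg10* had the minus strand higher, in *Tet2*+/+ and also in *Tet2*-/-, where the strands stood at 52.0% and 62.2% over 12 members. *Zrsr1*, with 43 members the most of the list, had 44.2% and 39.7% in *Tet2*+/+ and 31.5% and 40.6% in *Tet2*-/-, so that its direction turned, as it did in *Gnas* (2.35 and -10.8 points) and *Snrpn* (21.6 and -15.4). None of these differences was tested.

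Binding motifs that contain a CpG were read on both strands, by letters only: CTCF as AGGNGGCGC, CEBP as TTGCGCAA, CRE as TGACGTCA, ETS as CCGGAAGT and E-box as CACGTG. They held 0.0841%, 0.00983%, 0.0678%, 0.0768% and 1.24% of autosomal dyads, and a dyad could count under more than 1 motif. For CTCF, a factor that shapes chromatin loops, the motif strand minus the other strand was 0.138 and -0.797 points in *Tet2*+/+ and 2.64, 4.12 and 1.49 in *Tet2*-/- over 2807 members. The genotypes did not overlap there, but the group difference of 3.08 points had an exact p of 0.2. The CEBP, CRE and E-box motifs read the same on both strands, so that their difference is that of the plus and minus strands. At the CEBP motif, bound by the family of *Cebpa*, plus minus minus was -2.50 and -0.0818 points in *Tet2*+/+ and 0.781, 2.44 and 2.43 in *Tet2*-/- over 485 members. The genotypes did not overlap there either, with a group difference of 3.17 points and an exact p of 0.1, the smallest possible and not adjusted over the 5 motifs. Over all libraries it was 0.614 ± 2.05 points (exact p = 0.625). The ETS motif had a mean difference of 1.01 points, CRE of -0.475 and E-box of 0.0913, with exact p of 0.125 to 0.3125, and of 0.3 to 1 for the genotypes. The excess of far-apart strands in a motif minus that of all members had an exact p of 0.125 to 1.

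Differences between the strands recurred from library to library. Among the 859208 dyads with at least 2 calls on each strand in every library, the plus minus minus difference of a dyad in one library was set against that in another. The covariance was 14.7 squared points between the *Tet2*+/+ libraries, 14.6 on average between *Tet2*-/- libraries and 13.8 between the genotypes, the same as a shared difference with an SD of 3.83, 3.82 and 3.71 points. Pearson's r was 0.0195, 0.0262 and 0.0211 on average, a description over dyads that share libraries and base composition. In repeats the shared SD was 8.10, 8.10 and 7.996 points, and outside repeats 3.02, 2.999 and 2.88. Pairs of one genotype and pairs of both thus shared about as much.

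Dyads far apart in one genotype were then looked up in the other, whose calls had no part in their choice. Of the members, 18981 (0.458%) were at least 75 points apart in the *Tet2*+/+ pool without thinning, and their mean difference in *Tet2*-/- was 3.94 points in the same direction, with 164 at least 75 points apart in the same direction and 13 in the other. In the *Tet2*-/- pool 3343 members (0.0806%) were that far apart, and their mean difference in *Tet2*+/+ was 10.8 points. Most of the large differences thus did not recur, and a small part recurred in full. In soft-masked repeats the mean was 14.0 points for 3418 dyads chosen in *Tet2*+/+ and 28.6 points for 942 chosen in *Tet2*-/-. Outside repeats it was 1.73 points for 15563 dyads and 3.78 points for 2401. Of the 164 dyads far apart in both pools in the same direction, 137 lay in repeats, 79 with the plus strand higher and 85 with the minus strand higher.

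**Figure D3:**
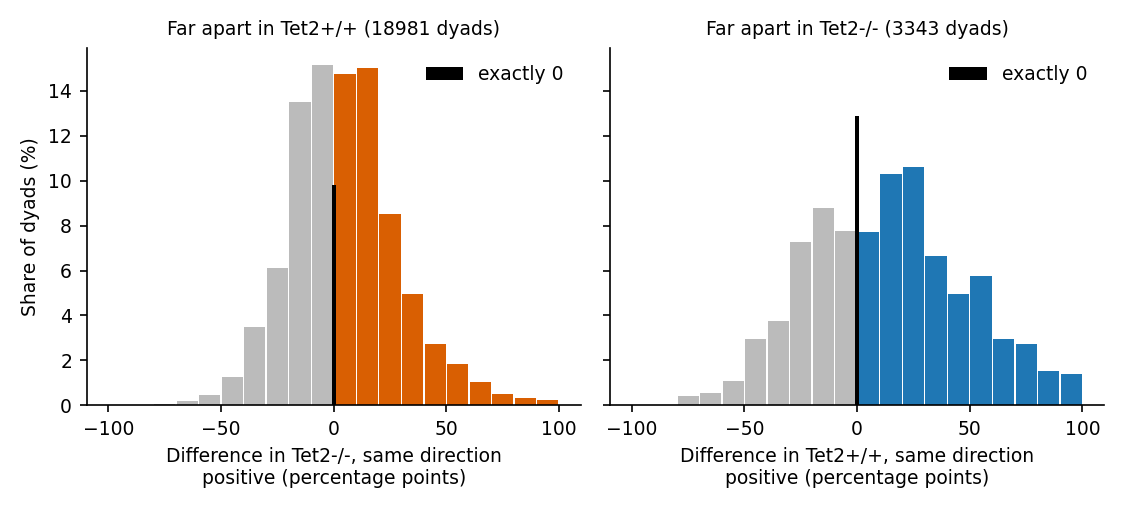
Strand difference in one genotype (percentage points, horizontal axis, positive where the direction is the same) of dyads that were at least 75 points apart in the other, as a share of dyads (vertical axis, %) in bins of 10 points, with a black bar for differences of exactly 0 (9.81% and 12.9%). Grey bars are differences in the other direction, and 49.9% of the 18981 dyads chosen in *Tet2*+/+ and 54.6% of the 3343 chosen in *Tet2*-/- lie above 0.

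Single dyads were tested on their calls, with an exact test of plus against minus within each library combined over libraries, adjusted by Benjamini-Hochberg over all members. This test counts calls and not animals. Of 4146055 dyads, 173 had a more methylated plus strand (0.00417%) and 167 a more methylated minus strand (0.00403%) at an adjusted p under 0.05, and 84876 had an unadjusted p under 0.05. Leaving out 1 library gave 159 and 156 called dyads for *Tet2*+/+ 23 and 24, and 116, 121 and 191 for *Tet2*-/- 5, 7 and 8. The calls were divided about evenly between the strands. The higher strand had a median level of 87.2% and the lower 16.5%. Of the 340 dyads, 256 (75.3%) lay in soft-masked repeats, against 10.8% of members. Over 3 times the median calls were found in 121 of them (35.6%), against 0.0744% of members. The test detects smaller differences where there are more calls, so dyads with many calls are favoured among those called. Without dyads of over 3 times the median calls, 180 were called. The lower strand had more calls than the higher in 253 of the 340, with medians of 46 and 25 calls.

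The direction of called dyads was looked up in calls that had no part in the choice. Tested in each genotype alone, 14 of 4146055 dyads were called in *Tet2*+/+ and 56 of 4146055 in *Tet2*-/-. In the genotype not used for the call, 14 of 14 and 54 of 56 had the same direction, with median differences of 30.5 and 47.6 points. Calls were not thinned here, and the *Tet2*-/- pool had a median of 10 calls a strand against 6 in *Tet2*+/+. The counts and medians of the genotypes therefore cannot be compared with each other. Among the 340, which were called on the calls of both genotypes together so that the choice favours a shared direction, 339 had the same direction in both pools and 205 were at least 50 points apart in both. With calls on both strands in every library there were 325, and 297 of them had 1 direction in all 5. Neighbouring members within 100 bp of a called dyad (888, not called themselves) had a mean difference of 7.19 points in its direction, and 72.1% of them shared it. A read can cover a called dyad and its neighbours at once, so the calls of these neighbours were not independent of the choice. By location 233 of the 340 were intergenic (68.5%, against 43.5% of members), 84 intronic (24.7% against 39.7%) and 7 exonic (2.06% against 9.79%), and 16 lay within 1 kb of a gene start (4.71% against 7.01%). The E-box motif held 3 of the 340 and 59598 of the 4146055 members, too few called dyads to tell from its share. The other 4 motifs and the imprinted promoters held 0, and each so few members that under 1 would be expected at the share of all members. A guanine followed the higher cytosine in 33.5% and the lower cytosine in 24.1%, and an adenine 23.5% and 29.1%.

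A single window of 10 kb on chromosome 17 held 37 of the called dyads, chosen here after its values were seen. It runs from 39840000 to 39849999 (GRCm38) and overlaps the long noncoding RNA genes *Gm26917*, *Gm42418* and *AY036118* and the ribosomal RNA gene *CT010467.1*. Its 553 members had a median of 552 calls, against 34 for all members. Whether all these reads belong to this place was not tested. Within it, a run of 28 members over 176 bases (39844516 to 39844690 as first and last plus-strand cytosines) in *Gm26917* held 24 called dyads. Over this run the plus strand stood at 40.7% and the minus strand at 20.1% in *Tet2*+/+ library 23, and at 38.5% and 10.6% in library 24. In *Tet2*-/- the strands were at 33.9% and 12.01%, 39.8% and 27.1%, and 26.3% and 15.1% in libraries 5, 7 and 8. The plus strand was higher in every library, by 20.6 and 28.0 points in *Tet2*+/+ and 21.9, 12.6 and 11.2 points in *Tet2*-/-. The plus strand was the higher in 31 of the 37 called dyads of the window and the minus strand in the rest, by 13.2 to 31.3 points in size. Of the 303 called dyads outside the window, 256 (84.5%) lay in soft-masked repeats, and their strands had median levels of 88.9% and 16.5%.

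Strand differences were next summed over gene bodies. With at least 20 calls on each strand in every library, 17363 protein-coding gene bodies were tested for a difference of sense and antisense strand within libraries (edgeR quasi-likelihood test, Benjamini-Hochberg adjusted p under 0.05). The sense strand was higher in 78 (0.449%) and the antisense strand in 44 (0.253%), and 109 of these 122 had 1 direction in all 5 libraries. Leaving out 1 *Tet2*-/- library reduced the count to 25 (library 5), 27 (library 7) or 27 (library 8). A gene body can differ over all calls where its strands were read at different dyads. At equal calls on both strands of each dyad, the median difference of the 122 fell from 9.88 points in size to 1.08 points in the same direction, and 6 gene bodies were called, all with the antisense strand higher, 5 of them among the 122. At equal calls 228 of 17363 had an unadjusted p under 0.05 in edgeR, against 2358 over all calls. Equal calls also leave fewer calls to test, and how far this lowered the count was not tested. Limma on the sums over all calls called 0 of 17363, with 2119 at an unadjusted p under 0.05.

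Genes with a higher antisense strand over all calls included *Hikeshi*, which carries heat shock proteins into the nucleus, with sense minus antisense of -9.21 and -3.51 points in *Tet2*+/+ and -18.2, -31.5 and -23.1 in *Tet2*-/- (mean -17.1 ± 11.1, n = 5, edgeR adjusted p = 0.0237) over 35 members. At equal calls its libraries ranged from -1.59 to 6.57 points. *Scnm1*, a splicing factor, had a mean of -15.9 ± 4.35 points, and at equal calls a range of -5.96 to 4.27. *Prr14*, which tethers heterochromatin to the nuclear lamina, had -13.4 ± 3.20, and at equal calls stayed below 0 in 5 of 5 libraries (-6.87 to -0.380). *Mpig6b*, an inhibitory receptor of platelets and megakaryocytes, had -12.6 ± 5.86 and ranged from -15.0 to 6.78 at equal calls. The direction held in every library at equal calls only in *Prr14* among these 4. *Fcf1*, *Ulk3*, *Derl2* and *Qpctl* were the others named by the rule on this side, with means of -16.6, -15.6, -13.6 and -13.0 points.

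Among genes with a higher sense strand, the predicted gene *Gm6034* had the largest difference by the rule, 44.7 and 17.6 points in *Tet2*+/+ and 27.8, 26.1 and 28.1 in *Tet2*-/- over 13 members (mean 28.8 ± 9.81, n = 5, edgeR adjusted p = 0.00334), and 4.54 points at equal calls. *Cd320*, the receptor for transcobalamin, had 23.5 and 23.9 points in *Tet2*+/+ and 16.6, 8.33 and 18.9 in *Tet2*-/- (mean 18.2 ± 6.35), and -0.167 at equal calls. *Calca*, the gene of calcitonin, had 17.1 ± 12.5 points and 4.34 at equal calls. *Bub3*, a spindle checkpoint gene, had 17.7 ± 11.3 and 1.87, and *Ciao1*, an iron-sulfur assembly gene, 15.3 ± 7.02 and 2.14. In each of these 5 genes the difference at equal calls was smaller than the lowest of its libraries over all calls. *Cript*, *Pnma1* and *Zfp174* had 19.2, 18.8 and 19.2 points over all calls and 0.286, 1.77 and 1.76 at equal calls.

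**Figure D4:**
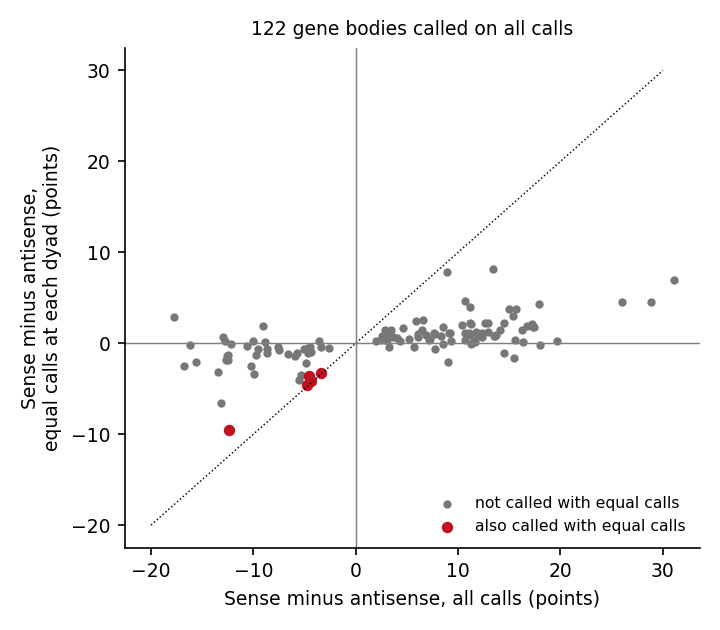
Sense minus antisense level over all calls (percentage points, horizontal axis) against the same difference at equal calls on both strands of each dyad (vertical axis) for the 122 gene bodies called over all calls, with the dotted line marking equality. Most points lie near 0 on the vertical axis (median 1.08 points in the same direction), and the 5 red points, called in both, lie on the antisense side.

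The 5 gene bodies called both ways, named after their values were seen, were the predicted genes *Gm10717*, *Gm10719* and *Gm10720* on chromosome 9, *Gm10800* on chromosome 2 and *Gm21738* on chromosome 14. Soft-masked repeats held 92.4% to 100% of their members, and the 22 members of *Gm10800* (chr2:98666547-98667301) carried 24003 calls. In *Gm10800* the sense minus antisense difference at equal calls was -3.41 and -3.47 points in *Tet2*+/+ and -3.39, -2.66 and -3.53 in *Tet2*-/- (edgeR adjusted p = 0.000148). In *Gm10720* (chr9:3015654-3017210, 17 members) it was -10.3 and -9.04 points in *Tet2*+/+ and -11.0, -5.96 and -10.3 in *Tet2*-/- (edgeR adjusted p = 0.0133). Every library lay on the same side in both genes. Repeats have near-identical copies elsewhere in the genome, so the place of these reads is uncertain. The sixth, *Gm20388*, spans 22038 members and differed by -0.239 points at equal calls, close to the minus-strand excess of all members.

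The genes that copy or remove methylation, and those on which the study turns, were described from a list. Of the 16 listed genes 0 were called, against 0.449% (sense higher) and 0.253% (antisense higher) of all gene bodies, shares at which 0 of 16 says nothing particular about them. In the list 4 had an unadjusted p under 0.05, against 2358 of all 17363, and the smallest edgeR adjusted p was 0.238. At equal calls their differences ranged from -3.33 to 2.21 points. *Dnmt1*, the maintenance methyltransferase, stood at 79.3% sense and 76.8% antisense over 292 members, with differences of 1.73 and 4.86 points in *Tet2*+/+ and 3.73, -0.858 and 3.94 in *Tet2*-/-, and -0.636 at equal calls. *Uhrf1*, which reads hemimethylated DNA, stood at 58.7% and 57.6% with libraries from -10.5 to 11.1 points. *Tet2* itself stood at 77.9% and 78.2% over 150 members, with libraries from -4.45 to 2.94. *Gata2*, a regulator of blood progenitors, stood at 37.6% and 32.6% over 90 members, positive in 5 of 5 libraries (0.137 to 10.1 points, unadjusted p = 0.0696), but at equal calls its libraries ranged from -1.23 to 4.53 points with 2 of 5 below 0. *Sirt5* was below 0 in 5 of 5 libraries both over all calls (-3.75 ± 1.52) and at equal calls (-8.40 to -0.925), with an edgeR adjusted p of 0.258. *Cebpa* was unmethylated on both strands, at 1.15% and 1.72%.

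The strand difference was then tested for a change with genotype. Sense minus antisense differed between the genotypes in 0 of 17363 gene bodies (0%) by the edgeR quasi-likelihood test and in 0 by limma, with 600 (3.46%) at an unadjusted p under 0.05 in edgeR and 768 in limma. Without *Tet2*+/+ library 23, 1 gene body was called. Among 5 kb tiles, 0 of 251834 (0%) differed between the genotypes by either tool, with 9839 (3.91%) at an unadjusted p under 0.05 in edgeR and 11302 in limma. Leaving out *Tet2*+/+ library 24 or *Tet2*-/- library 8 gave 1 tile each.

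Tiles of 5 kb, with at least 10 calls on each strand in every library, extended the search outside genes. The plus strand was higher in 388 of 251834 (0.154%) and the minus strand in 432 (0.172%), with 730 of these 820 in 1 direction in all 5 libraries. Leaving out 1 library gave 706 and 529 for *Tet2*+/+ 23 and 24, and 325, 168 and 415 for *Tet2*-/- 5, 7 and 8, and limma called 57. The median size was 18.5 points over all calls and 4.69 points in the same direction at equal calls, where 23 tiles were called, 16 of them among the 820. Here too, equal calls leave fewer calls to test. Soft-masked repeats held 46.7% of the members of these 23 tiles on average, 19.95% in the 820 and 10.97% in all tested.

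The tiles with the largest differences did not behave alike at equal calls. In an intergenic tile of chromosome 14 (102420001 to 102425000, 7 members, 85.7% in repeats), plus minus minus was -48.7 and -46.2 points in *Tet2*+/+ and -53.4, -48.7 and -54.8 in *Tet2*-/-, and at equal calls -51.3 to -28.7 (edgeR adjusted p = 0.00349). An intergenic tile of chromosome 7 (38385001 to 38390000, 8 members outside repeats) had 35.8 to 46.2 points over all calls and 23.3 to 39.4 at equal calls (edgeR adjusted p = 0.00851). Each of these 2 tiles had 1 direction in every library. A tile in *Fgfr2*, a growth factor receptor gene (chromosome 7, 130830001 to 130835000, 19 members), had 32.7 and 25.4 points in *Tet2*+/+ and 37.0, 53.0 and 53.7 in *Tet2*-/- over all calls, and 5.97 to 47.3 at equal calls (edgeR adjusted p = 0.111). A tile in *Abcg2*, a drug efflux transporter gene (chromosome 6, 58590001 to 58595000, 6 members), had -69.2 to -25.2 points over all calls but at equal calls ranged from -51.6 points to above 0, with 2 libraries on the plus side. The tiles in *Hacd1* (chromosome 2, 13965001 to 13970000) and between genes on chromosome 2 (131790001 to 131795000) had means of 41.1 and -45.6 points over all calls. At equal calls their libraries ranged from 24.2 to 55.6 and from -38.1 to -11.7 points, on the same side in 5 of 5, with edgeR adjusted p of 0.125 and 1.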

How the data were processed

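Genomic DNA of sorted blasts was bisulfite converted, and libraries were made by random priming (Pico Methyl-Seq). According to the labels and methods of the study, the authors trimmed reads with Trim Galore 0.4.3, checked them with FastQC 0.11.7 and mapped them to GRCm38 (mm10) with Bismark 0.19.1, which ran Bowtie 2 without assuming strand direction. They then discarded duplicates and extracted the calls. The deposited values are raw, unnormalized counts of calls, methylated and unmethylated, for every CpG cytosine of each strand. Duplicates were removed by position and molecules were not labelled, so counting intervals would cover counting error only.

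Each library listed 43816016 cytosines, and all 21353092 dyads on the autosomes and the X chromosome lay at a CpG of the RefSeq GRCm38 reference. The members and lists were chosen with earlier results of these data known. The level of a strand was its methylated calls over all calls. Thinning to 4 calls was averaged exactly (hypergeometric), and the expectation drew 2 disjoint sets of 4 calls from all calls of a dyad. Library differences were tested by exact permutation. Single dyads were tested by an exact conditional test stratified by library. Gene bodies (GENCODE) and tiles were fitted in edgeR 4.0.16 (R 4.3.3) to methylated and unmethylated counts per library and strand, with a coefficient per library and strand and trended dispersion (glmQLFit, glmQLFTest), and with limma 3.58.1 as an alternative. Adjusted p-values used Benjamini-Hochberg over all features at 0.05. The test of single dyads, the excess of far-apart strands and the region tests were tried on simulated data first.

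Named gene bodies were the 8 with the largest difference in each direction among those called with 1 direction in all 5 libraries, named tiles the 3 largest, and 16 genes and 15 imprinted genes were listed whatever their values. The comparison at equal calls and the ratio of observed to expected shares were added after seeing the data. Other alternatives were coverage minimums, thresholds, thinned depths, weighting, dyads with many calls or in repeats left out, and each library left out. Python 3.11.15, numpy 2.4.6, scipy 1.17.1, numba 0.67.0 and matplotlib 3.10.9 were used. No batch is named in the labels, so batches could not be compared.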

Additional observations from a re-analysis of the deposited data

How the results depend on the processing

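Over 26 results and their alternatives, 12 values turned direction and 34 pool excesses or counts of calls moved by more than the spread between libraries or by over 1.5 times. The other 206 kept their direction (counts stayed within 1.5 times), though not always their size: sense minus antisense was 0.355 points with all autosomal dyads and 0.0535 with at least 6 calls a strand, and CGC minus CGT was -0.111 at equal calls. Sense minus antisense over gene bodies turned to -0.000388 points with unweighted levels and to -0.00649 at equal calls, and the genotype difference of CGC minus CGG to 0.0818 and 0.107 points. The excess of far-apart dyads in the *Tet2*+/+ and *Tet2*-/- pools was 0.306 and 0.417 points at a distance of at least 50, 0.0223 and 0.0274 at 100, 0.105 and 0.0925 against binomial draws at the level of the dyad, 0.0329 and 0.0425 with 6 calls a strand, 0.0556 and 0.0273 without thinning, and 0.0798 and 0.107 without repeats. In *Tet2*+/+ it was 0.155 with the expectation drawn within each library. The genotype difference of the excess turned to -0.0531, -0.0170 and -0.0115 points with binomial draws, with 6 calls and without thinning. The cause of these changes was not tested. Called dyads fell to 180 without dyads of over 3 times the median calls, called gene bodies to 0 with limma and 6 at equal calls, and called tiles to 57 and 23.

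Leaving out 1 library at a time gave 116 to 191 called dyads, 25 to 176 gene bodies, 168 to 706 tiles, and 0 to 1 gene bodies and tiles with a genotype difference. CGA minus CGT ranged from -0.0181 (without *Tet2*+/+ library 23) to 0.401 points. Genotype differences ranged from -0.0571 to 0.0135 for plus minus minus, -0.635 to 0.218 for CGC minus CGG, -0.730 to 0.00241 for CGA minus CGC and -0.00162 to 0.0647 for the excess. The excess of the *Tet2*+/+ pool was 0.117 to 0.167 and that of the *Tet2*-/- pool 0.138 to 0.182. No paired analysis was possible because the genotypes share no replicate numbers.

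With 2 and 3 libraries the exact permutation test of a genotype difference cannot go below 0.1, and a strand has a median of 6 calls in the *Tet2*+/+ pool and 10 in the *Tet2*-/- pool, so that single dyads with small differences were not detectable at this depth.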

Other observations

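Some called dyads and regions were not described above because they fall outside the rules for naming. The 3 tiles given here were called at equal calls (edgeR adjusted p of 0.000832, 0.00536 and 0.00536 in the order given). At equal calls, a tile of chromosome 15 (22010001 to 22015000, 12 members, 66.7% in repeats) had plus minus minus differences of 19.6 and 28.6 points in *Tet2*+/+ and 23.9, 12.1 and 31.99 in *Tet2*-/-. A tile of chromosome 13 (62415001 to 62420000, 13 members, 76.9% in repeats) had 20.7 and 19.2 points in *Tet2*+/+ and 16.6, 24.4 and 18.3 in *Tet2*-/-. Outside repeats for the most part (14.3% of 14 members), a tile of chromosome 8 (15515001 to 15520000) had -12.8 and -15.6 points in *Tet2*+/+ and -8.34, -19.2 and -21.8 in *Tet2*-/-. Its 14 members held 1836 calls, where the median of a member was 34. In these 3 tiles, chosen after their values were seen, every library lay on the same side. Members with over 3 times the median calls (3085) had 5.01% far-apart dyads against 3.37% expected in the *Tet2*+/+ pool and 4.96% against 2.96% in the *Tet2*-/- pool. The called dyads lay in 273 windows of 10 kb, of which 19 held 2 or more.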
